A study of Mus musculus with 24 samples.

Results

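The hippocampal transcriptome of Tob-KO mice was compared with that of WT mice culled 15 min after contextual fear conditioning. The comparison holds 6 of the 24 libraries of the series, namely 3 labelled KO and 3 labelled WT at this time point, and was chosen by genotype and time label alone. Mice were C57BL/6J, male and 8 to 12 weeks old, and each library came from hippocampal tissue of 1 biological replicate. The other 18 libraries came from naive mice and from mice culled 1 h or 3 h after conditioning, with 3 libraries for each genotype and time. Conditioning paired a chamber and a tone with inescapable foot shock, and naive mice were not conditioned. The knockout is described as an earlier, constitutive line, not limited to a cell type or an age, and its Tob1 level in these libraries is given with the depth. All libraries were bulk tissue, in which fewer cells of a type and less RNA per cell cannot be told apart.

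Tob is an anti-proliferative protein of the Tob/Btg family that binds the CCR4-NOT deadenylase and shortens the poly(A) tails of target mRNAs. The hippocampus borders the choroid plexus, the secretory epithelium of the ventricles that makes cerebrospinal fluid and transthyretin. It also lies close to the septum, whose cholinergic and GABAergic neurons project into it. Many transcripts of such neighbouring tissue are rare in hippocampal neurons and glia, so called genes were grouped into neuronal, glial, blood and neighbouring-tissue genes.

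Library totals at 15 min ranged from 28985355 to 41595972 counts, so that 1 count was worth 0.0240 to 0.0345 CPM (the level used throughout, with library sizes equalised by TMM normalization). The targeted gene, listed as Tob1 (ENSMUSG00000037573.5), measured 66.5, 68.6 and 65.4 CPM in the 3 Tob-KO-labelled libraries and 44.4, 44.1 and 42.8 CPM in WT. The level ran against the label, without overlap, with a log2 difference of 0.61 ± 0.054 (SE, n = 3 per group, adjusted p = 1.17e-12, exact test of edgeR, Benjamini-Hochberg). Directions below therefore compare libraries labelled Tob-KO with libraries labelled WT. The tissue label was met by hippocampal subfield markers, with summed levels of 1313 to 1489 CPM in Tob-KO and 1243 to 1467 CPM in WT over 20 genes. Replicates are separate samples by the labels, and p-values measure the spread between these 6.

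At 15 min, 102 of 18364 tested genes (0.555%) were called differentially expressed, with an adjusted p of at most 0.05 by the exact test and a fold change of at least 2. Of these, 84 (0.457% of genes tested) were higher and 18 (0.098%) were lower in Tob-KO. In the higher set, 21 were markers of choroid plexus epithelium, 38 were other genes whose level followed choroid plexus markers in the 18 other libraries, 24 had no such relation that passed and 1 (Scn10a) could not be tested for it. The lower set held red cell, neutrophil and glucocorticoid-responsive genes beside lens, keratin and unnamed transcripts. Without the fold limit 137 genes (0.746%) passed. The quasi-likelihood test of edgeR, in which the spread of a gene is itself treated as uncertain, called 0 genes. In that test the 102 called genes had an adjusted p of 0.448 to 0.459. An unadjusted p under its limit was met by 1577 genes (8.59%), against 1478 (8.05%) for the exact test. The count was 252 without Tob-KO replicate 1, 34 without replicate 2 and 33 without replicate 3, and 43, 150 and 30 without WT replicates 1, 2 and 3. With each of the 6 libraries left out in turn, 10 genes were called every time, namely Ttr, Slc4a5, Tmem72, Ooep, Lhb, Crhr2, Mc3r, Gm11940, Hif3a and A830036E02Rik.

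Choroid plexus genes were the largest group on the higher side. Of 25 markers tested, 21 rose and 0 fell, the median log2 fold change was 3.58 against -0.0058 over all genes, and 17 had groups that did not overlap (6.82% of all genes lay higher without overlap). The summed level of the markers was 333, 5622 and 2310 CPM in Tob-KO and 237, 274 and 279 CPM in WT. Tob-KO replicate 2 was the highest and replicate 1 the lowest of the 3 for all 21 called markers. Replicate 1 lay above every WT library for 15 of them, at levels close to WT. Without Tob-KO replicate 2 the exact test called 11 of the markers, without WT replicate 1 also 11, without WT replicate 3 it called 4, and without Tob-KO replicates 2 and 3 together 0.

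Ttr, which encodes transthyretin, the carrier of thyroxine and of retinol-binding protein, was at 29.0, 2895 and 1099 CPM in Tob-KO and at 3.65, 13.6 and 16.6 CPM in WT. Its log2 fold change was 6.89 ± 1.37 (SE), a 119-fold difference (adjusted p = 0.000422, exact test). Among transporters and channels, Kcne2, a potassium channel subunit, was at 0.298, 23.2 and 8.96 CPM in Tob-KO and at 0.117, 0.274 and 0.0641 CPM in WT. For the water channel gene Aqp1, levels were 0.795, 30.8 and 10.3 CPM against 0.497, 0.583 and 0.385 CPM. Both genes showed one Tob-KO library close to WT and the other two far above. Slc16a8, a lactate transporter of choroid plexus and retinal pigment epithelium, had 305 counts over the Tob-KO libraries and 1 count over WT, a ratio of 268 (exact 95% interval 47.8 to 10636, counting error only). Slc4a5, a bicarbonate transporter, rose by 6.86 ± 1.49 (SE) on the log2 scale and Kcnj13, an inward rectifier, by 3.44 ± 0.81.

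Secreted and surface proteins of the epithelium rose alongside. Enpp2, the enzyme autotaxin that makes lysophosphatidic acid, was at 213, 1877 and 858 CPM in Tob-KO and at 167, 171 and 186 CPM in WT. Kl, the anti-ageing protein klotho, was at 22.0, 161 and 62.4 CPM against 17.7, 19.0 and 20.7 CPM, the smallest change of the called markers at 2.09 ± 0.55 (SE, log2, adjusted p = 0.0230 by the exact test). The folate receptor Folr1 was at 0.862, 26.8 and 9.71 CPM against 0.497, 1.06 and 0.673 CPM, so its groups overlapped although it was called. The tight-junction protein Cldn2, coagulation factor F5, the BMP and Wnt antagonist Sostdc1 and the keratin Krt18 rose by 3.93, 4.51, 3.22 and 2.47 on the log2 scale. Markers that were not called were Slc13a4 (0.72), Msx1 (1.03), Car12 (1.04) and Trpv4 (2.10), with adjusted p from 0.0762 to 0.244 by the exact test.

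The homeobox factor Otx2, which specifies choroid plexus epithelium, was at 1.79, 17.98 and 6.76 CPM in Tob-KO and at 0.526, 1.27 and 0.417 CPM in WT (log2 fold change 3.58 ± 0.77, adjusted p = 0.00161, exact test). Since these genes rose together, their promoters (RefSeq, GRCm38.p6, 250 bases before to 50 after each start) were searched on both strands for TAATCC, bound by OTX-type homeobox factors, and for GTTGCC, which occurs in the X-box of RFX factors. Of 21 called markers, 16 had a promoter in the table. TAATCC was in 2 of these (12.5%, against 8.14% of 27025 genes) and GTTGCC in 4 (25% against 14.1%). The windows that follow are from Otx2 (chr14:48665303-48665332, minus strand) and Mfrp (chr9:44101624-44101653, plus strand), with TAATCC on the opposite strand in capitals, and from Kcne2 (chr16:92292268-92292297, plus strand) and Aqp1 (chr6:55336176-55336205, plus strand), with GTTGCC or its complement in capitals.
Otx2: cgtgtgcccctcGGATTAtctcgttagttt
Mfrp: ctcagctgagttGGATTAaggaccattccg
Kcne2: cgacgtcacacaGGCAACtccgtgccccgc
Aqp1: attagagcaacgGTTGCCtcctgcctcctt
They are shown as matches in the factor itself and in markers with large fold changes. A match describes letters only. Both shares rest on few promoters and were not tested.

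To ask how the called genes behave outside this comparison, each library was given a choroid plexus score, the mean log2 CPM of the 25 markers centred per gene. Over all 24 libraries, 10 had a score below -1, 14 were above 0 and 0 lay between, in both genotypes and at every time. All 3 WT libraries at 15 min were in the low set, at -2.78, -2.26 and -2.48, and so was Tob-KO replicate 1 at -1.95. Tob-KO replicates 2 and 3 scored 2.19 and 0.93. Elsewhere the low set held 1 WT and 1 Tob-KO naive library, 1 WT and 0 Tob-KO libraries at 1 h, and 1 WT and 2 Tob-KO libraries at 3 h. WT at 15 min was thus a group with all 3 libraries low and Tob-KO at 1 h one with none low.

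**Figure D1:**
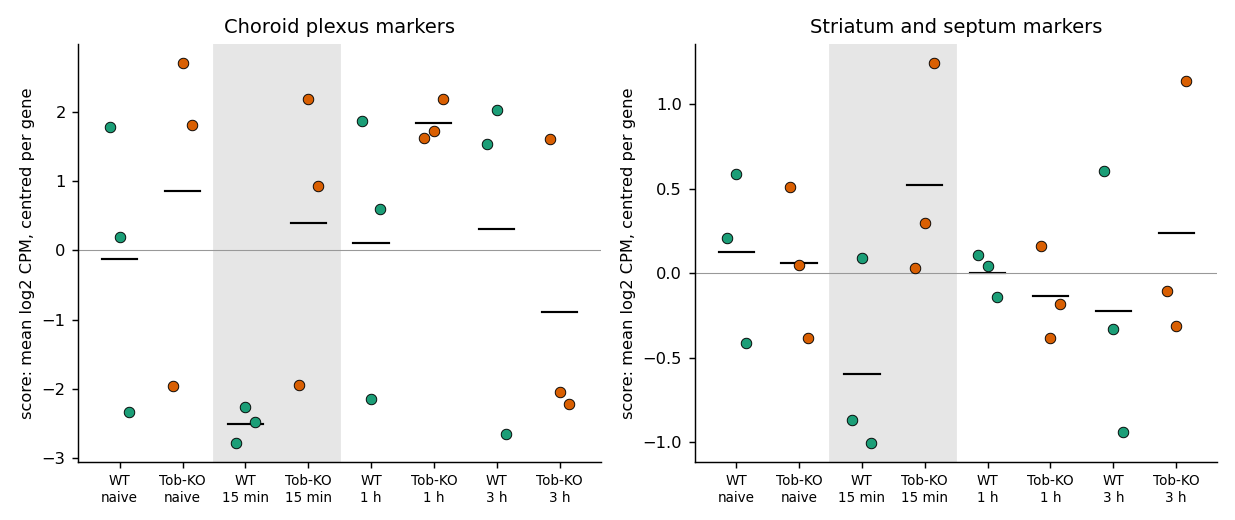
Scores of choroid plexus markers (left) and of striatum and septum markers (right) in each of the 24 libraries, as mean log2 CPM centred per gene, with WT in green, Tob-KO in orange, the group mean as a bar and the 15 min groups shaded. On the left, the 3 WT libraries at 15 min lie between -2.78 and -2.26 and the Tob-KO libraries at -1.95, 2.19 and 0.93, and on the right Tob-KO replicate 3 at 15 min is the highest of all 24 at 1.24.

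Beyond the markers, 38 called genes had a positive slope on this score over the 18 libraries that the comparison did not use (adjusted p of at most 0.05 by edgeR's quasi-likelihood test with group as a factor, met with a positive slope by 3.92% of 19221 genes). All 38 were higher in Tob-KO, with a median log2 fold change of 2.44 that was unchanged with the 2 genes at 0 in WT set to their bounds. Tob-KO replicate 2 was highest and replicate 1 lowest for all 38, as for the markers. The slopes ran from 0.22 for Crhr2 to 1.62 for Defb11 (log2 per unit of score), and Ttr itself had 1.59 ± 0.050 (SE), though markers are part of the score.

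**Figure D2:**
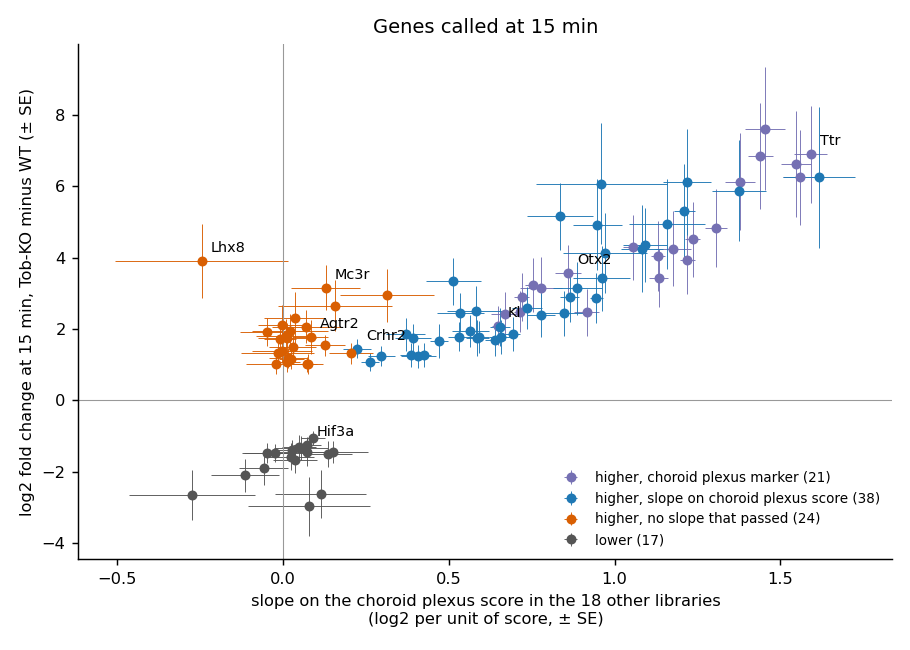
Log2 fold change at 15 min (Tob-KO minus WT) of each called gene against its slope on the choroid plexus score in the 18 other libraries, both with SE, in 4 classes. Markers and the 38 genes with a slope reach fold changes up to 7.61 at slopes up to 1.62. The 24 other higher genes and the 17 lower genes with a slope estimate lie between -0.27 (Rmrp) and 0.31 (Gtsf1l). Their slopes did not pass, although that of Crhr2, at 0.22, did.

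The 38 genes included epithelial, transport and cilia genes. By the naming rule these were Cfap126 and Pifo, both of motile cilia, Crhr2 and the genes of largest change (Defb11, Sult1c2, Mcoln3, Tmprss11a, Prr32, Ooep, Otx2os1 and Slc28a3), and the others named here were chosen after their values were seen. Defb11, a beta-defensin, and Mcoln3, a lysosomal cation channel, had 0 counts in the 3 WT libraries and 31 and 27 counts in Tob-KO, at least 9.09-fold and at least 7.92-fold higher against a floor of 3 counts over the group. Sult1c2, a sulfotransferase, had 108 counts against 1, a ratio of 95.05 (exact 95% interval 16.7 to 3789). Otx2os1, a transcript at the Otx2 locus, had 47 counts against 1. The keratin Krt8 was at 0.762, 4.37 and 2.47 CPM in Tob-KO and at 0.263, 0.446 and 0.545 CPM in WT, and Ace, angiotensin-converting enzyme, at 19.0, 99.7 and 47.8 CPM against 19.9, 15.8 and 12.6 CPM. Krt8 levels did not overlap, whereas for Ace the lowest Tob-KO library lay inside the WT range. Lhb, the beta subunit of luteinizing hormone, was at 0.398, 0.902 and 0.719 CPM against 0, 0.137 and 0.0641 CPM.

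Motile cilia belong to the ependyma lining the ventricle and to choroid plexus. Of 21 cilia genes tested, 2 rose and 0 fell, 20 had a log2 fold change above 0 (48.2% of all genes did) and 7 lay higher without overlap (6.82% of all genes did). Pifo, a regulator of cilia disassembly, was at 1.06, 1.92 and 1.65 CPM in Tob-KO and at 0.204, 0.720 and 0.481 CPM in WT. Foxj1, the master factor of motile ciliogenesis, was at 16.2, 22.6 and 19.6 CPM against 8.996, 15.85 and 10.99 CPM, a log2 difference of 0.71 ± 0.20 (SE) that was not called (adjusted p = 0.0779, exact test). Both showed no overlap, with WT replicate 2 the highest WT library. Meningeal fibroblast genes, from the other tissue that clings to a dissected hippocampus, gave 0 calls over 16 genes, a median of -0.18, and summed levels of 304 to 343 CPM in Tob-KO and 283 to 316 CPM in WT.

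Receptors for hormones and neuropeptides formed a further set, with 28 genes tested, 4 higher and 0 lower (0.457% and 0.098% of all genes). Without overlap, 6 were higher and 3 lower (6.82% and 6.83% of all genes were). The 3 lower ones were Sstr1 (-0.33), Igf1r (-0.20) and Thra (-0.11 on the log2 scale), which were not called. Mc3r, the melanocortin receptor 3 of energy balance, was at 0.530, 1.61 and 1.68 CPM in Tob-KO and at 0.0292, 0.274 and 0.128 CPM in WT. The groups did not overlap, and the log2 fold change was 3.16 ± 0.63 (SE), or 8.92-fold (adjusted p = 0.00098, exact test). Crhr2, the receptor 2 for corticotropin-releasing hormone and urocortins, was at 2.82, 5.16 and 4.65 CPM against 1.17, 1.89 and 1.60 CPM, also without overlap (1.45 ± 0.26, adjusted p = 0.00098). Agtr2, the angiotensin II receptor type 2, was at 0.828, 0.648 and 0.647 CPM against 0.175, 0.377 and 0.0641 CPM (1.78 ± 0.48, adjusted p = 0.0321). In this gene Tob-KO replicate 1 was the highest of its group. Mean levels of Mc3r in naive, 1 h and 3 h libraries were 0.742, 0.621 and 0.316 CPM in WT. In Tob-KO they were 1.16, 0.918 and 0.902 CPM. Those of Crhr2 were 3.33, 3.46 and 2.89 CPM in WT and 4.51, 3.71 and 2.91 CPM in Tob-KO. WT at 15 min had the lowest mean of the 8 groups for Mc3r, Crhr2 and Agtr2. For Mc3r and Crhr2, Tob-KO at 15 min (means of 1.27 and 4.21 CPM) lay near its naive mean. Prlr, the prolactin receptor and also a choroid plexus marker, was at 7.16, 69.6 and 32.5 CPM against 3.13, 7.24 and 4.36 CPM, with overlap.

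Crhr2 had a slope of 0.22 ± 0.042 (SE) on the choroid plexus score in the 18 other libraries (adjusted p = 0.00238, quasi-likelihood test), whereas that of Mc3r was 0.13 ± 0.10 and did not pass (adjusted p = 0.705). Avpr1a, the vasopressin receptor 1a, was at 0.795, 0.986 and 1.89 CPM in Tob-KO and at 0.438, 0.583 and 0.256 CPM in WT, a log2 difference of 1.54 ± 0.42 that did not pass (adjusted p = 0.0807, exact test) although the groups did not overlap. The GLP-1 receptor Glp1r, at 3.21, 4.56 and 5.78 CPM against 0.555, 3.16 and 0.769 CPM, had an adjusted p of 0.205 by the same test. Steroid and thyroid hormone receptors gave no call. The estrogen receptor gene Esr1 was at 2.58, 2.96 and 2.90 CPM against 2.34, 4.08 and 2.31 CPM (-0.04 ± 0.24). For the glucocorticoid receptor Nr3c1 the difference was 0.07 ± 0.055, and for the mineralocorticoid receptor Nr3c2 0.33 ± 0.11 (adjusted p = 0.180).

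The 24 higher genes without a choroid plexus slope that passed had smaller changes, with log2 fold changes from 1.01 to 3.91 and a median of 1.74. In 23 of them the groups did not overlap, which calling on the same libraries favours. Tob-KO replicate 3 was the highest Tob-KO library for 17, replicate 2 for 5 and replicate 1 for 2, which differs from the order seen in the choroid plexus genes. WT replicate 2 was the highest WT library for 16 of the 24. Together with the lower genes and Scn10a, 43 called genes had no choroid plexus slope that passed or could be tested, and 7 of them were still called without Tob-KO replicate 3.

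**Figure D3:**
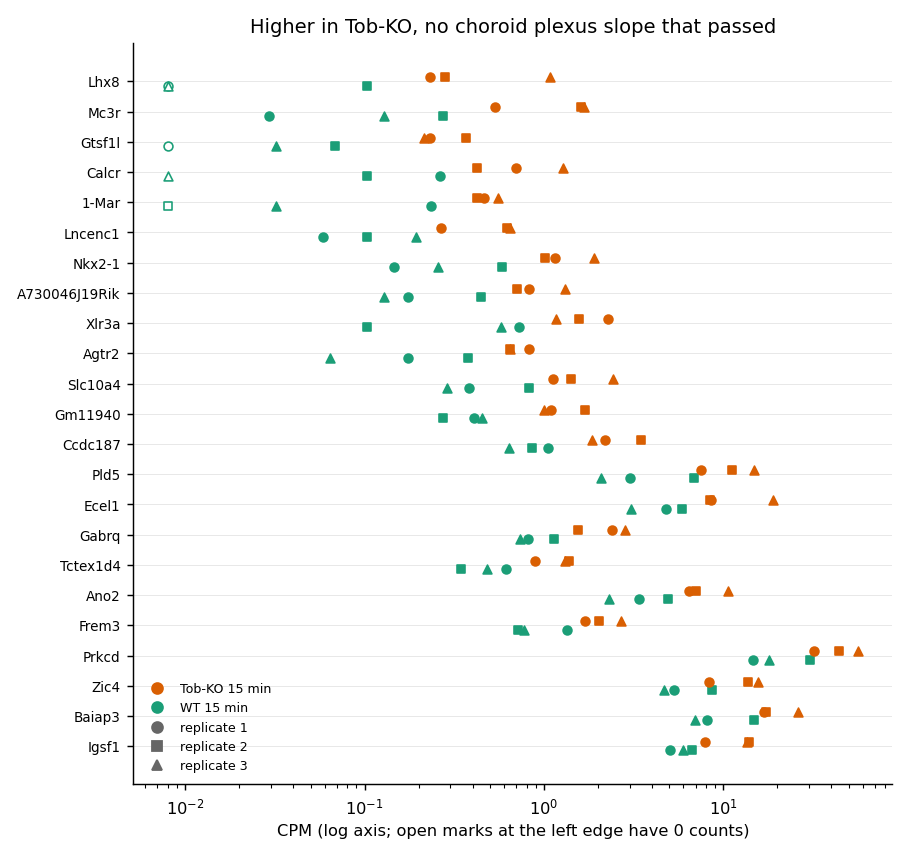
CPM in each 15 min library (log axis) of 23 of the 24 genes called higher in Tob-KO with no choroid plexus slope that passed, ordered by fold change, with Tob-KO in orange, WT in green and the replicate given by the symbol. In all genes shown but Zic4 every Tob-KO library lies above every WT library, and replicate 3 (triangle) is often the highest Tob-KO mark.

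Several of these genes mark the ventral forebrain. Of 19 striatum and septum genes tested, 3 rose and 0 fell, 17 had a log2 fold change above 0 (48.2% of all genes did) and the median was 1.04. Lhx8, a homeobox factor of basal forebrain cholinergic neurons, had 62 counts in the Tob-KO libraries and 3 in WT, a ratio of 18.2 (exact 95% interval 5.94 to 90.6), and Tob-KO replicate 3 alone was at 1.08 CPM with the others at 0.232 and 0.282. Nkx2-1, a patterning factor of the ventral forebrain, was at 1.16, 1.01 and 1.89 CPM against 0.146, 0.583 and 0.256 CPM (log2 fold change 2.07 ± 0.46, adjusted p = 0.00732, exact test). Zic4, a zinc-finger factor of midline tissue, was at 8.35, 13.7 and 15.7 CPM against 5.29, 8.65 and 4.65 CPM, with overlap. The dopamine receptor gene Drd1, of striatal projection neurons, was at 6.73, 4.79 and 7.29 CPM against 6.75, 5.04 and 6.70 CPM. The summed level of the 19 genes was 150, 197 and 254 CPM in Tob-KO and 120, 158 and 112 CPM in WT. On the corresponding score, Tob-KO replicate 3 ranked first of all 24 libraries while WT replicates 1 and 3 ranked 22 and 24.

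A slope on this score in the 18 other libraries, computed after the data were seen, passed for 7 of the other 21 genes (0.307% of all genes tested). Among them were Ecel1, Pld5, Slc10a4, Prkcd, Baiap3 and A730046J19Rik. Prkcd, protein kinase C delta, abundant in thalamus and in lateral septum, was at 31.9, 44.4 and 56.3 CPM in Tob-KO and at 14.7, 30.5 and 17.9 CPM in WT, and was the 1 call among 13 thalamic, habenular, hypothalamic and brainstem genes (median 0.09). Slc10a4, a synaptic vesicle protein of cholinergic and monoaminergic neurons, was at 1.13, 1.41 and 2.42 CPM against 0.380, 0.823 and 0.288 CPM. Ecel1, an endopeptidase of neurons, was at 8.55, 8.42 and 19.1 CPM against 4.82, 5.90 and 3.08 CPM. In Prkcd, Slc10a4 and Ecel1, Tob-KO replicate 3 was highest and WT replicate 2 was the highest WT library. The part of septal tissue in these values was not tested.

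Of the 14 remaining genes, Mc3r and Agtr2 are described with the receptors. Gabrq, the theta subunit of the GABA-A receptor, was at 2.39, 1.55 and 2.83 CPM in Tob-KO and at 0.818, 1.13 and 0.737 CPM in WT (1.34 ± 0.28, adjusted p = 0.0100, exact test), the 1 call among 21 GABA synapse genes. The calcitonin receptor Calcr was at 0.696, 0.423 and 1.27 CPM against 0.263, 0.103 and 0 CPM. Both were low, and both were apart from WT in every library. Slopes of Mc3r, Gabrq and Calcr on the septum score were 1.12 ± 0.34, 1.08 ± 0.30 and 1.87 ± 0.54 (SE). They did not pass (adjusted p = 0.428, 0.362 and 0.377, quasi-likelihood test), although that of Pld5, at 0.98 ± 0.14, did. Xlr3a and Gm11940 had slopes of -0.55 and -0.39. A slope that did not pass leaves the part of septal tissue in these genes untested. Ano2, a calcium-activated chloride channel, was at 6.46, 7.07 and 10.6 CPM against 3.39, 4.94 and 2.31 CPM, and Igsf1, an immunoglobulin superfamily membrane protein, at 7.95, 13.8 and 13.6 CPM against 5.02, 6.69 and 5.93 CPM. The extracellular matrix gene Frem3 was at 1.69, 2.03 and 2.68 CPM against 1.34, 0.720 and 0.769 CPM. Ccdc187, a coiled-coil gene, was at 2.19, 3.47 and 1.85 CPM against 1.05, 0.858 and 0.641 CPM. Tctex1d4, a dynein light chain, rose by 1.32, the long non-coding RNA Lncenc1 by 2.12 and Xlr3a by 1.81 on the log2 scale, of which Xlr3a has near-identical copies and is uncertain. Gtsf1l had 29 counts against 3, a ratio of 8.51 (exact 95% interval 2.64 to 43.6), and a row named 1-Mar, a date in place of a symbol, was called and could not be assigned to a gene. Scn10a, a sodium channel of sensory neurons, had 21 counts against 2, a ratio of 9.24 (exact 95% interval 2.26 to 81.3).

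On the lower side, 18 genes fell, and in all 18 the groups did not overlap (6.83% of all genes lay lower without overlap). The calls were made on these same libraries, which favours separated groups, so the separation is no further support for them. Their log2 fold changes ran from -3.16 to -1.06, and 11 of the 18 had means below 1 CPM in both groups. For the 17 with a slope estimate, no slope on the choroid plexus or the septum score passed.

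**Figure D4:**
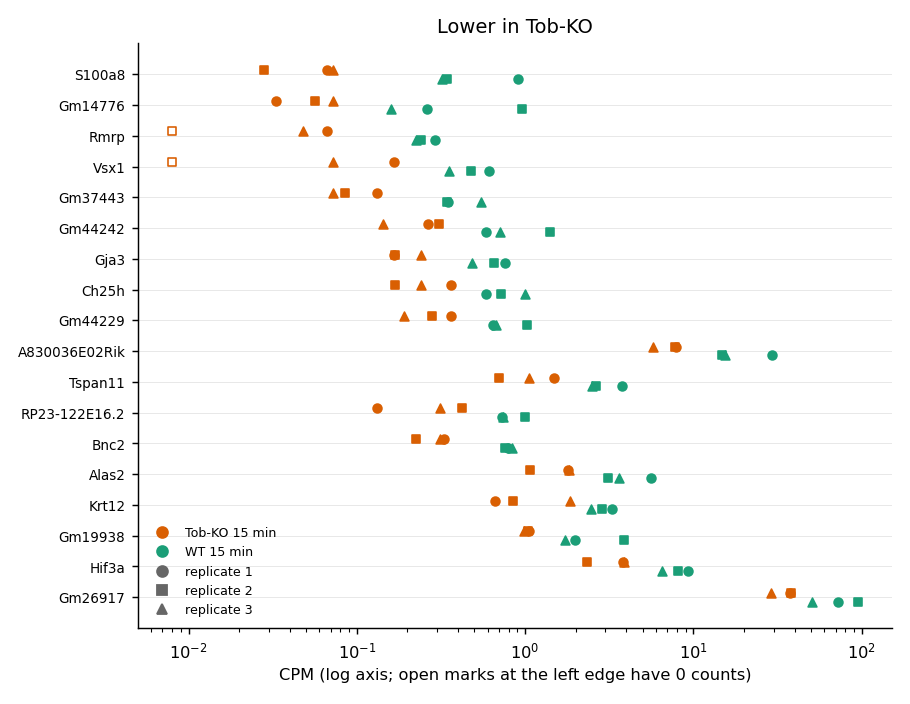
CPM in each 15 min library (log axis) of the 18 genes called lower in Tob-KO, ordered by fold change, with Tob-KO in orange, WT in green and the replicate given by the symbol. Every Tob-KO library lies below every WT library for all 18, and most genes are below 1 CPM.

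Of the blood genes, 1 of 6 red cell genes and 1 of 4 neutrophil genes tested fell (0.098% of all genes did), and 0 rose. Alas2, the rate-limiting enzyme of haem synthesis in red cells, was at 1.79, 1.07 and 1.82 CPM in Tob-KO and at 5.58, 3.12 and 3.62 CPM in WT (-1.39 ± 0.28, adjusted p = 0.00325, exact test). Of the 6 red cell genes, 5 were lower without overlap (6.83% of all genes were). The beta-globin gene Hbb-bs, at 27.3, 20.8 and 27.2 CPM against 64.2, 33.998 and 38.4 CPM, and the alpha-globin gene Hba-a1, at 20.9, 16.3 and 22.0 CPM against 52.4, 26.8 and 30.4 CPM, passed the adjusted p (0.0251 and 0.0312, exact test) but not the fold limit. The promoter of Alas2 holds AGATAA, the GATA-type motif, on the opposite strand, in capitals in the window shown (chrX:150547319-150547348, plus strand, RefSeq GRCm38.p6), as do 12.7% of all promoters.
Alas2: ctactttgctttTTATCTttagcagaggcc
It is shown as the erythroid gene with the largest change that passed. S100a8, a calcium-binding protein of neutrophils, was at 0.0663, 0.0282 and 0.0719 CPM in Tob-KO and at 0.905, 0.343 and 0.321 CPM in WT (-3.16 ± 0.64, adjusted p = 0.00314, exact test). Its partner S100a9 was at 0.0994, 0.169 and 0.0240 CPM against 1.29, 0.206 and 0.481 CPM (adjusted p = 0.0751), and all 4 neutrophil genes tested were lower without overlap. WT replicate 1 had the highest level of each red cell gene and of both S100 genes. Endothelial and mural genes gave 0 calls over 18 genes with a median of -0.20, and the endothelial surface gene Ly6c1, at 16.1, 13.5 and 16.1 CPM against 18.6, 23.0 and 23.1 CPM, passed the adjusted p alone (0.0344).

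Glucocorticoid-responsive genes gave 0 higher and 1 lower of 19 tested (0.098% of all genes were called lower), and 6 were lower and 0 higher without overlap (6.83% and 6.82% of all genes). Hif3a, an inhibitory hypoxia-inducible factor subunit induced by glucocorticoids, was at 3.84, 2.34 and 3.88 CPM in Tob-KO and at 9.26, 8.06 and 6.47 CPM in WT. The log2 fold change was -1.24 ± 0.22 (SE), 2.36-fold lower (adjusted p = 0.000461, exact test), and it was called with each library left out and by DESeq2. In naive mice Hif3a was at 14.9 ± 1.76 CPM (SD, n = 3) in Tob-KO and 14.9 ± 3.53 CPM in WT. Plin4, a lipid droplet protein, was at 2.92, 1.89 and 2.40 CPM against 5.17, 4.12 and 4.13 CPM at 15 min, past the adjusted p (0.0162) but not the fold limit. The largest difference on the list was that of Lcn2, described next, which was not called, while Fkbp5 had -0.15 ± 0.059 and Sgk1 -0.07 ± 0.31 on the log2 scale. AGAACA, the half-site of steroid receptors, was in 2 of 10 promoters of lower genes (20%, against 21.3% of all), in 7 of 16 promoters of called choroid plexus markers (43.8%), in 5 of 29 of the genes that followed them (17.2%) and in 5 of 22 of the other higher genes (22.7%), and these shares were not tested.

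Lcn2, the iron-siderophore carrier lipocalin-2 of neutrophils and reactive astrocytes, was at 0.298, 0.0282 and 0.0719 CPM in Tob-KO and at 0.321, 0.652 and 4.74 CPM in WT. The groups did not overlap, but the lowest WT library lay just above the highest Tob-KO library and WT replicate 3 carried most of the difference. With a log2 difference of -3.84 ± 1.12 (SE), Lcn2 was not called (adjusted p = 0.0554, exact test). The inflammation and acute phase list gave 1 lower gene of 13 tested, with a median of 0.02. That gene was Ch25h, cholesterol 25-hydroxylase, at 0.365, 0.169 and 0.240 CPM against 0.584, 0.720 and 0.994 CPM (adjusted p = 0.0296).

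The other lower genes were of mixed kinds. Gja3, a connexin of the lens, was at 0.166, 0.169 and 0.240 CPM in Tob-KO and at 0.759, 0.652 and 0.481 CPM in WT, and Vsx1, a homeobox factor of retinal interneurons, at 0.166, 0 and 0.0719 CPM against 0.613, 0.480 and 0.353 CPM. The zinc-finger gene Bnc2 was at 0.331, 0.225 and 0.312 CPM against 0.789, 0.755 and 0.833 CPM. Tspan11, a tetraspanin, was at 1.49, 0.704 and 1.05 CPM against 3.77, 2.64 and 2.50 CPM (-1.46 ± 0.28, adjusted p = 0.00245, exact test). Rmrp, the RNA of RNase MRP that processes ribosomal RNA, was at 0.0663, 0 and 0.0479 CPM against 0.292, 0.240 and 0.224 CPM. A further 6 loci without a known function, among them Gm14776, Gm37443, Gm44242, Gm44229 and Gm19938, had log2 fold changes from -2.97 to -1.29. Gm26917 was at 37.7, 38.0 and 28.9 CPM against 72.2, 95.4 and 50.4 CPM (-1.06 ± 0.20), and Gm42418, chosen after its value was seen, averaged 981 CPM against 1628 CPM (-0.73 ± 0.17, adjusted p = 0.0157). In WT, Gm26917 averaged 71.9 CPM in naive mice, 35.6 CPM at 1 h and 35.4 CPM at 3 h. Its Tob-KO means at those times were 45.4, 39.4 and 39.8 CPM. Mitochondrial genome transcripts, followed as a sign of RNA quality, gave 0 calls over 10 genes, with summed levels of 28095, 33497 and 33629 CPM in Tob-KO and 29433, 35363 and 29832 CPM in WT.

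Genes of hippocampal neurons showed few calls. Pan-neuronal genes (12), hippocampal subfield genes (20), interneuron and neuropeptide genes (20) and glutamate receptor genes (28) gave 0 calls in either direction, with median log2 fold changes of -0.01, 0.13, -0.08 and -0.00070. Gad1 and Gad2, the enzymes that make GABA, were at 377, 365 and 424 CPM against 334, 332 and 336 CPM and at 198, 214 and 255 CPM against 172, 197 and 166 CPM, both without overlap and both short of the threshold (adjusted p = 0.246 and 0.195, exact test). Cck, a neuropeptide of interneurons, was at 168, 149 and 158 CPM against 186, 186 and 183 CPM, without overlap (adjusted p = 0.152). Immediate early genes gave 0 calls over 36 genes with a median of -0.24, and 6 had a log2 fold change above 0 (48.2% of all genes did). Fos was at 51.7, 23.8 and 42.1 CPM in Tob-KO and at 64.9, 34.8 and 34.6 CPM in WT, Arc at 301, 151 and 176 CPM against 378, 172 and 230 CPM, and the phosphatase gene Dusp1 at 45.3, 22.4 and 33.1 CPM against 61.6, 35.4 and 35.1 CPM (-0.39 ± 0.27, adjusted p = 0.866). The groups overlapped for all 3 genes. ERK pathway genes (24 tested, median -0.01), BMP and SMAD genes (19, 0.02) and Tob/Btg and deadenylation genes (23, 0.04) gave 0 calls.

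Glial lists also gave 0 calls at the fold limit. Of 15 oligodendrocyte genes, 13 had a log2 fold change above 0 (48.2% of all genes did) and 8 lay higher without overlap (6.82% of all genes did). The adjusted p without the fold limit was passed by 3 of them, and by 104 of all genes (0.566%) on the higher side. Mag, a myelin adhesion protein, was at 200, 199 and 199 CPM in Tob-KO and at 170, 163 and 166 CPM in WT (0.26 ± 0.047, adjusted p = 0.0132, exact test), and Mog, a surface protein of myelin, at 73.3, 67.1 and 72.8 CPM against 54.6, 55.2 and 59.5 CPM. The 3 Tob-KO libraries lay close together for both, including replicate 1, unlike the choroid plexus genes. Astrocyte, oligodendrocyte precursor and microglia genes had medians of -0.06, -0.01 and -0.01 over 15, 6 and 15 genes, with 0 calls. Gfap, the astrocyte filament, was at 399, 400 and 439 CPM against 361, 489 and 448 CPM.

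The called genes were next followed in the naive and the later libraries, which were not used to call them. The 21 choroid plexus markers had median log2 fold changes of 1.19, 1.06 and -1.08, with 21, 21 and 0 of them above 0, where 51.7%, 49.5% and 49.3% of all genes were above 0. Of these markers, 0 were called between genotypes at any of these times. The markers rose and fell together across libraries, so their counts above 0 are not separate observations and do not replicate the calls. Of the 38 genes with a choroid plexus slope, 37 were tested at each of these times, with medians of 1.08, 0.90 and -0.61. The 24 higher genes without one that passed had medians of 0.19, -0.20 and 0.54 over the 23 tested at each time, and the lower genes medians of -0.44, 0.13 and 0.19 over 16. In naive mice 4 genes (0.0218%) were called between genotypes, at 1 h 6 (0.033%) and at 3 h 5 (0.0274%).

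**Figure D5:**
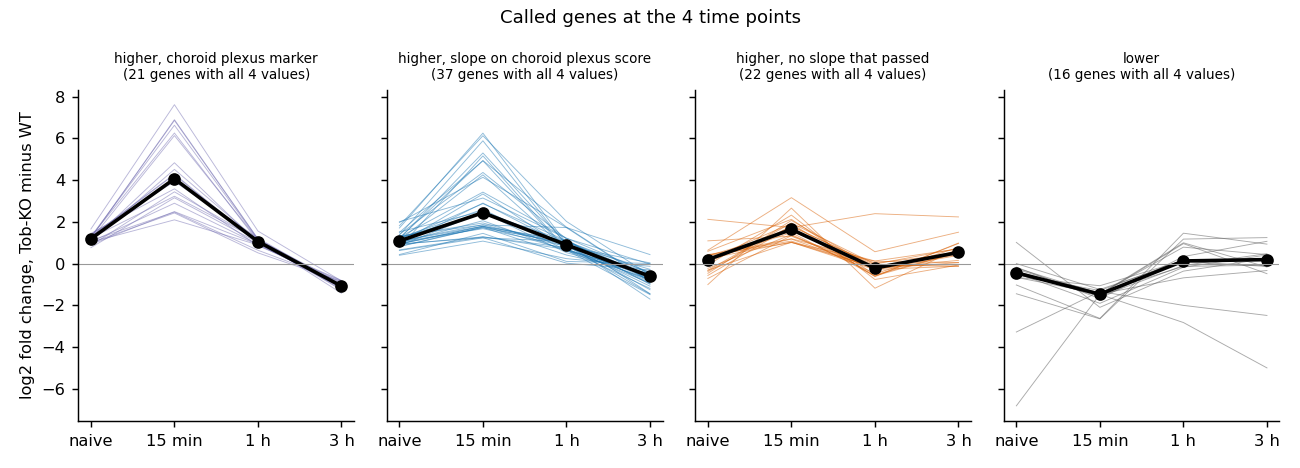
Log2 fold change (Tob-KO minus WT) at each of the 4 times for the genes called at 15 min, in 4 classes, each gene as a thin line and the class median in black. The 21 markers are above 0 in naive mice, at 15 min and at 1 h and below 0 at 3 h, and the lower genes spread around 0 at 1 h and 3 h except for Krt12 and A830036E02Rik, which stay low.

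The difference between genotypes at 15 min was tested against that in naive mice over 12 libraries with edgeR's quasi-likelihood test. 1 of 19025 genes passed (0.00526%), and 641 (3.37%) had an unadjusted p under the limit. That gene was A830036E02Rik, a non-coding transcript antisense to the corneal keratin gene Krt12. In naive mice A830036E02Rik was at 0.131, 0.157 and 0.295 CPM in Tob-KO and between 16.7 and 26.9 CPM in WT. The 15 min libraries gave 7.89, 7.80 and 5.73 CPM in Tob-KO and 29.4, 14.8 and 15.3 CPM in WT, so that the log2 difference was smaller by 5.34 ± 0.51 (SE, adjusted p = 0.00273). Tob-KO replicate 1 at 1 h, at 5.43 CPM, was also above the other 2 of its group, at 0.208 and 0.267 CPM. Hif3a, Mc3r, Crhr2, Agtr2 and Lcn2 did not pass this test (adjusted p = 0.999 for each).

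A830036E02Rik lies on chromosome 11 at 99416956 to 99425497 (plus strand, GRCm38) and overlaps Krt12 at 99415666 to 99422259 (minus strand), 5.20 Mb from Tob1. The strand setting of the counting was not given in the sources used here, so reads of the pair cannot be told apart. Krt12 was at 0.663, 0.845 and 1.85 CPM in Tob-KO and at 3.30, 2.85 and 2.47 CPM in WT at 15 min, and its log2 fold changes in naive and 3 h libraries were -3.27 and -2.48. Gm11940, an antisense transcript 5.17 Mb from Tob1, was the reverse, at 1.09, 1.69 and 1.01 CPM against 0.409, 0.274 and 0.449 CPM at 15 min and with log2 fold changes of 2.12, 2.39 and 2.24 at the other times. The sign of each of these 3 genes was the same at all 4 times. Within 10 Mb of Tob1, 325 genes were tested, of which 2 were called higher, 2 lower (1.23% in all, against 0.555% of all genes), and 6 passed the adjusted p at any fold change, as did 0.746% of all genes. The 2 lower calls were Krt12 and A830036E02Rik, whose reads cannot be told apart, so the share rests on few separate calls. Wfikkn2, a secreted protease inhibitor 0.0205 Mb from Tob1, was the other call on the higher side, at 2.92, 7.30 and 6.76 CPM against 2.16, 2.92 and 2.18 CPM with overlap. Wfikkn2 also followed the choroid plexus score in the other libraries (slope 0.41 ± 0.053 SE, adjusted p = 6.19e-05, quasi-likelihood test). Utp18, a ribosome biogenesis gene 0.326 Mb from Tob1 and chosen after its value was seen, differed by 0.55 ± 0.076 (SE, log2, adjusted p = 0.00011, exact test).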

How the data were processed

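The authors purified poly(A) RNA from hippocampi, made directional libraries with 8 PCR cycles, sequenced 150-bp paired-end reads, mapped them to GRCm38 with STAR 2.6.1d and deposited raw HTSeq 0.9.0 counts per gene without normalization (versions per the labels). The annotation release, strand setting and handling of multimapping reads were not given in the sources used here. Column names of the counts carry the tag markdup, for marked duplicates, and whether marked reads were counted was not given. PCR reads carry no molecular identifiers, so intervals and floors cover counting error only.

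Groups, times and replicate numbers came from the labels. Tob-KO and WT libraries at 15 min were compared with edgeR 4.0.16 (R 4.3.3) by its exact test after TMM normalization, following the study's methods, on genes with at least 0.2 CPM in 2 of the 6 libraries. Calls needed a fold change of 2 or more, with the p-value and its Benjamini-Hochberg adjusted form both at 0.05 or below. Under the same stated limits the paper reported fewer genes in each direction at 15 min, and the reason was not tested. Promoters on chromosome 18 were not used here. Standard errors came from edgeR's quasi-likelihood fit. That fit also gave the interaction with time (12 libraries) and slopes on marker scores (18 libraries, log2 CPM with prior count 2, group as a factor). CPM were computed after TMM normalization over 24 libraries. DESeq2 1.42.0, other scalings, filters and dispersions, covariates and left-out libraries were alternatives. The exact, quasi-likelihood and DESeq2 comparisons, a slope and the interaction were tested on simulated data with the same spread for all genes. Marker scores, list summaries, count ratios, motif searches and the flags were not. Symbols were matched to GENCODE (GRCm38), where 99 of 102 called genes had 1 match. Of 489 list entries in 26 lists, 4 genes were not in the table and 31 fell below the filter.

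The comparison and the lists were chosen with earlier results of these data known. Named genes were Tob1, the genes the study names for its sequencing, the 15 with the largest change in each direction, called members of the lists and called genes with no choroid plexus slope that passed. A few genes are not reported here.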

Additional observations from a re-analysis of the deposited data

Results flagged for a closer look

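The log2 difference between genotypes of A830036E02Rik was less negative at 15 min than in naive mice, by 5.34, a difference that was tested and passed. In 5 other called genes reported here the groups did not overlap at 15 min and did not overlap in the opposite direction at a later time, and these differences between times were not tested. At 1 h, Slc10a4 was at -0.60, Tspan11 at 1.00, Gm44229 at 0.96 and Vsx1 at 1.46 (log2 fold change, Tob-KO minus WT), and at 3 h Gja3 was at 1.07. Tspan11 was at 1.73, 1.80 and 3.20 CPM in Tob-KO and at 1.31, 1.44 and 0.598 CPM in WT at 1 h. At 15 min, 13.7% of all genes had groups that did not overlap, with 6.82% higher and 6.83% lower. The share of all genes apart in opposite directions at different times is not given here. The count of 5 therefore has no reference and is not read as a result about these genes.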

How the results depend on the processing

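The count of 102 called genes was 102 with RLE or library-size scaling, 97 with no filter, 137 without the fold limit, 35 (31 higher) with DESeq2, 43 with 1 CPM in 3 libraries, 16 with the dispersion of all 24 libraries, and 0 with the quasi-likelihood test over 6 or 24 libraries and with the choroid plexus score as a covariate. Covariates added after seeing the data, the septum score and both scores, gave 1 each. Left-out libraries gave 30 (without WT replicate 3) to 252 (without Tob-KO replicate 1), with 43 and 150 without WT replicates 1 and 2, 34 and 33 without Tob-KO replicates 2 and 3, and 2 without both. Of 43 called genes without a choroid plexus slope that passed or could be tested, 7 were still called without Tob-KO replicate 3. The 21 choroid plexus markers became 10 with DESeq2, 11 with 1 CPM in 3 libraries, 0 with the dispersion of 24 libraries, the quasi-likelihood fits or Tob-KO replicates 2 and 3 both left out, and 4 to 24 with single libraries left out (4 without WT replicate 3, 11 without WT replicate 1 or Tob-KO replicate 2). Tob1 kept its direction and its side of the threshold under every alternative run. The interaction gave 0 genes against the mean of the other 3 times, and 1 to 2 with left-out libraries (2 without naive Tob-KO replicate 2). Replicate numbers did not pair the libraries (correlations of same-numbered deviations 0.157, 0.044 and -0.099; 2 Tob-KO libraries matched their own number best). A replicate block gave 6 calls, 5 of them choroid plexus markers, and 1 interaction gene. The causes of these shifts were not tested.

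Named genes reversed in few fits, but many lost their call. With the septum score or both scores as covariates, added after seeing the data, 135 values of named genes were weaker (call lost). In these fits 10 were the same and 13 reversed. Over the other alternatives 670 values were weaker, 595 the same, 6 stronger and 12 reversed. With left-out libraries Esr1 ranged from -0.18 (without WT replicate 3) to 0.29 (without WT replicate 2) and was 0.016 without Tob-KO replicate 1, and Dusp1 ranged from -0.66 to 0.042 (without Tob-KO replicates 2 and 3). With the choroid plexus score as covariate, a score that holds the markers themselves, log2 values were -0.094 for Aqp1, -0.19 for F5, -0.58 for Cldn2, -0.65 for Kcnj13, -0.20 for Folr1, -0.079 for Enpp2, -0.13 for Steap1, -0.22 for Kl and -0.63 for Krt18. With both scores they were -0.72 for Defb11, -0.13 for Aqp1, -0.26 for F5, -0.43 for Cldn2, -0.31 for Kcnj13, -0.23 for Folr1, -0.015 for Enpp2, -0.31 for Steap1, -0.034 for Calml4, -0.059 for Kl, -0.69 for Krt18 and -0.028 for Baiap3, which was -0.10 with the septum score alone. At this depth, 34 called genes had means below 1 CPM in both groups, and their fold changes are imprecise.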

Other observations

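Beyond the lists, several genes passed the adjusted p without reaching the fold limit, and those named here were chosen after their values were seen. Genes that myelinating cells express were among the higher ones. Gsn, which encodes the actin-severing protein gelsolin, averaged 81.9 CPM in Tob-KO and 60.1 CPM in WT, with a log2 fold change of 0.45 ± 0.054 (SE, n = 3 per group, adjusted p = 3.19e-06 by edgeR's exact test). Gpr37, a receptor of oligodendrocytes, Tspan2, a myelin tetraspanin, and Pllp, the myelin protein plasmolipin, had log2 fold changes of 0.31 ± 0.054, 0.28 ± 0.048 and 0.33 ± 0.070. Higher genes that choroid plexus epithelium expresses strongly were the serotonin receptor gene Htr2c (0.87 ± 0.23, 71.7 against 39.3 CPM) and the chloride cotransporter gene Slc12a2 (0.47 ± 0.12, 143 against 103 CPM), both of which neurons and glia express too.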
